A study of Mus musculus with 6 samples.

Results

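Genes of the major histocompatibility complex (MHC) and of antigen presentation were examined in primary hepatocytes, the main cell type of the liver, of WT and S100a16KO+/- mice that had all been fed alcohol. The genes were taken by name from the deposited table. They are all genes whose symbol starts with H2- followed by A, D, E, K, M, O, Q or T, without H2-Ke6 and without names ending in -ps, together with B2m, Tap1, Tap2, Tapbp, Tapbpl, Erap1, Nlrc5, Ciita, Cd74 and Cd1d1. This gave 37 of the 25718 genes in the table. Each genotype had 3 libraries, made from poly(A)-selected RNA and read as pairs with molecular identifiers in the adapters. All mice were males of 8 to 10 weeks. After 5 days of control liquid diet they were kept for 10 days on liquid diet that held 5% ethanol by volume, and received a gavage of 5 g/kg ethanol on day 11, 9 h before collection. S100a16KO+/- mice carried a single deleted copy of S100a16, made from a floxed exon 2-3 allele with EIIa-Cre, which acts in the early embryo, on an over 98% C57BL/6 background. The deletion is therefore not restricted to hepatocytes. Homozygous mice do not survive, and no control-fed library was analysed here, so an effect of alcohol cannot be read from these libraries. The sample labels call this genotype a knockdown, and the description of the series calls it S100a16KO+/-, the name used below.

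MHC class I molecules present peptides from inside the cell. A heavy chain (H2-K1, H2-D1 and the H2-Q, H2-T and H2-M families in the mouse) pairs with the light chain beta-2-microglobulin (B2m) in the endoplasmic reticulum, where the Tap1-Tap2 transporter delivers peptides and tapasin (Tapbp) helps load them. MHC class II molecules (H2-A and H2-E) present peptides taken up from outside and are made mainly by dendritic cells, macrophages and B cells, where the invariant chain Cd74 and the H2-DM and H2-O proteins guide their loading. Hepatocytes are known to carry class I and very little class II. Most of these genes lie together on chromosome 17, are among the most variable between mouse strains, and resemble each other closely, so that a short read can fit several of them.

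How alike the class I genes are is shown by a stretch of 60 coding bases from exon 4, which encodes the membrane-proximal part of the heavy chain. Sequences are from the GENCODE M21 transcripts on GRCm38, written 5′ to 3′ on the gene's own strand, and capitals mark bases that differ from H2-K1. The H2-K1 stretch lies at chr17:33997472-33997531 on the minus strand, that of H2-D1 at chr17:35265813-35265872 on the plus strand, that of H2-Q10 at chr17:35473112-35473171 on the plus strand and that of H2-T23 at chr17:36031009-36031068 on the minus strand.
H2-K1: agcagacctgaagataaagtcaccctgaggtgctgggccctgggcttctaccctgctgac
H2-D1: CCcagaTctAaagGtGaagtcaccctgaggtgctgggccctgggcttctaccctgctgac
H2-Q10: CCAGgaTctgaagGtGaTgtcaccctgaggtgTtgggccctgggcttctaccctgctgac
H2-Q4: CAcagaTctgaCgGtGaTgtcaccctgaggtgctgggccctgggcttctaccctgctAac
H2-Q6: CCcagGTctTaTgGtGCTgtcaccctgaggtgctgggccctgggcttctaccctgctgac
H2-Q7: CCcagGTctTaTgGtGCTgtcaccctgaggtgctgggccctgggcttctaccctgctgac
H2-T23: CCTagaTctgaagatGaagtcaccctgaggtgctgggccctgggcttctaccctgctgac
H2-T22: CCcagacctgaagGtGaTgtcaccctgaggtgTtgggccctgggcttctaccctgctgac
H2-M3: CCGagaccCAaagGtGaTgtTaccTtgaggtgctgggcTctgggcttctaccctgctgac
H2-D1 differed from H2-K1 at 6 of these bases, H2-T23 at 5, H2-Q10 at 9 and H2-M3 at 11. H2-Q6 and H2-Q7 were identical to each other across the whole stretch and differed from H2-K1 at 10 bases. Over all GENCODE transcripts of a gene, 22.8% of the 31-base words of H2-K1 also occurred in transcripts of other genes, as did 26.7% for H2-D1, 30.3% for H2-Q10, 39.1% for H2-Q7, 51.0% for H2-T22 and 57.8% for H2-Q5. At a length of 150 bases, the length of a read, the shared part was 0% for H2-K1 and H2-Q4, 1.35% for H2-D1, 3.43% for H2-Q10, 5.90% for H2-Q7 and 5.99% for H2-Q6. Outside the class I family the overlap was small, with 0% of the 31-base words of B2m and Nlrc5, 0.825% of Tap1, 0.267% of H2-Ab1 and 1.41% of Cd74 found in another gene. Values of the H2-Q and H2-T genes are for these reasons less certain one by one than their sum, and how the authors' aligner treated reads that fit several genes is not given in the sources used here.

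The targeted gene followed the labels. S100a16, a calcium-binding protein of the S100 family, had 1001, 1056 and 1107 estimated counts in WT replicates 1, 2 and 3 and 433, 390 and 366 in S100a16KO+/- replicates 1, 2 and 3 (log2 fold change -1.40, SE 0.11, edgeR's quasi-likelihood test, two-sided, adjusted p = 4.14e-07, n = 3 against 3). The libraries held 67658095 to 71807834 estimated counts, in which a sequenced fragment was worth about 4 counts. The summed level of 6 hepatocyte markers was 48271 to 49375 FPKM (fragments scaled for transcript length and for library size) in WT and 47226 to 48170 in S100a16KO+/- libraries, most of it from Alb, with 2 of the 6 called lower (Cyp2e1 and Ttr, each with a log2 fold change of -0.33), and no other marker list went above 100.3 FPKM in any library. WT replicate 1 and S100a16KO+/- replicate 2 stood apart from the other 4 libraries on the principal component with the next largest variance after the genotype axis, and had the largest share of mitochondrial transcripts (21.1% and 20.1%, against 16.98% to 18.6%). Results that rest on them are given with and without them.

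Genes of the class I pathway were mostly higher in S100a16KO+/- libraries, by small margins. Of the 37 genes, 33 passed the filter on low counts and were tested. The other 4 (H2-Ea, H2-Eb2, H2-M10 and H2-M2) had at most 10 counts in any library, under the 12 counts that a count of 0 allows (3 fragments, counting error only). Called means an adjusted p under 0.05 in edgeR's quasi-likelihood test over all 15957 tested genes. By this measure 16 of the 33 were higher in S100a16KO+/- libraries (48.5%), where 11.6% of all tested genes were, and 2 were lower (6.06%), against 11.2% of all tested genes. The median log2 fold change of the 33 was 0.21, with a range of -1.15 to 0.79, and that of all tested genes was 0.01. The FPKM of the genotypes did not overlap in 17 of the 33 (34.5% of all tested genes), with the S100a16KO+/- libraries higher in 16 (18.7%) and lower in 1 (15.8%). Only H2-K2 passed the study's own criterion, in which the unadjusted p is under 0.05 and the fold change reaches 2 in either direction, as 4.52% of all tested genes did. With WT replicate 1 and S100a16KO+/- replicate 2 both left out, 11 were higher and 2 lower, and H2-M3, H2-Q5, H2-Eb1, Tap2 and Tapbpl were no longer called. Leaving out single libraries left 7 to 11 higher and 2 lower, the fewest without S100a16KO+/- replicate 1. Nothing in the labels says that the libraries come from separate mice, so the p-values measure the spread between libraries, and fewer cells of a type and less RNA per cell cannot be told apart in such samples.

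**Figure D1:**
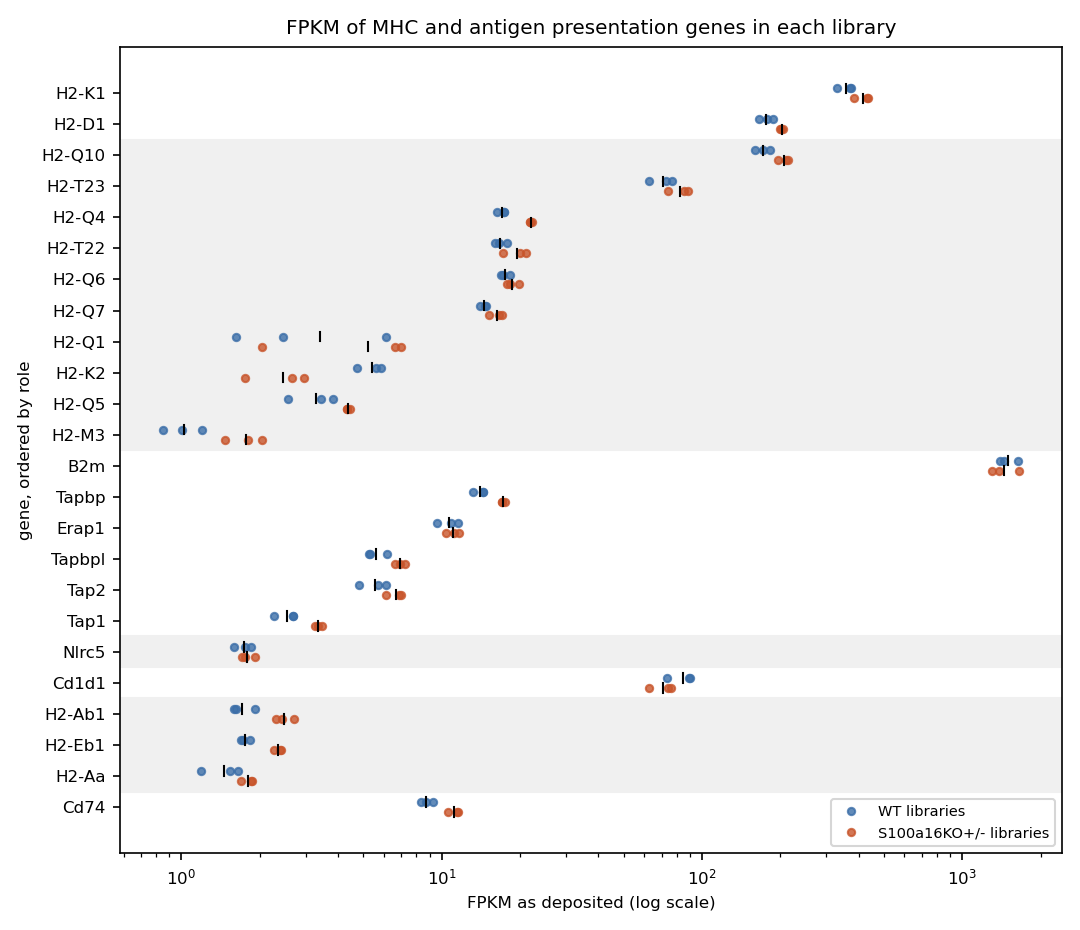
FPKM on a log axis of the 24 genes that averaged 1 FPKM or more, or were called, in each of the 3 WT (blue) and 3 S100a16KO+/- (orange) libraries, with a black tick at the mean of each genotype. B2m, at 1298 to 1655 FPKM, and H2-K1, at 330 to 434 FPKM, are the most abundant, and the class II chains lie at 1.19 to 2.71 FPKM.

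The classical class I heavy chains, which present peptides to CD8 T cells, were both higher. H2-K1 (chr17:33996017-34000347, GRCm38) had 330, 375 and 370 FPKM in WT replicates 1, 2 and 3 and 434, 383 and 430 FPKM in S100a16KO+/- replicates 1, 2 and 3. All S100a16KO+/- libraries lay above all WT libraries, S100a16KO+/- replicate 2 only by a narrow margin. The mean rose from 358 ± 24.6 to 416 ± 28.4 FPKM (SD, n = 3 each), and the fit to the counts, from which percent changes are taken throughout, gave a rise of 15.4% (log2 fold change 0.21, SE 0.04, adjusted p = 0.00366 with edgeR). H2-D1 (chr17:35262730-35267499) had 165, 187 and 177 FPKM in WT and 205, 199.99 and 202 FPKM in S100a16KO+/- libraries. The S100a16KO+/- values lay close together above the WT values, and the mean rose from 177 ± 11 to 202 ± 2.74 FPKM, with a fitted rise of 14.2% (log2 fold change 0.19, SE 0.05, adjusted p = 0.0108 with edgeR). Without WT replicate 3 the adjusted p of H2-D1 was 0.0579, and the H2-K1 call was held without any single library. With limma on log2(FPKM + 1) and on log2(FPKM + 0.1) neither was called (adjusted p = 0.0871 and 0.0843 for H2-K1, 0.0565 and 0.0537 for H2-D1).

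Among the non-classical class I genes, 13 of 15 were tested, 7 were higher (53.8%, against 11.6% of all tested genes) and 1 was lower (7.69%, against 11.2%). H2-Q10, which encodes a secreted class I molecule made mainly by the liver, had 160.3, 182 and 172 FPKM in WT and 209.5, 196 and 214 FPKM in S100a16KO+/- libraries. The genotypes did not overlap, and its level was close to that of H2-D1 in both genotypes. Its mean rose from 171 ± 10.99 to 206 ± 9.62 FPKM, with a fitted rise of 19.8% (log2 fold change 0.26, SE 0.04, adjusted p = 0.000532 with edgeR). H2-Q4 had 16.3, 17.3 and 17.4 FPKM in WT and 21.8, 21.8 and 22.3 FPKM in S100a16KO+/- libraries. The gap between the genotypes was larger than the spread within either. The mean of H2-Q4 rose from 17.01 ± 0.574 to 21.996 ± 0.274 FPKM, with a fitted rise of 28.8% (log2 fold change 0.36, SE 0.06, adjusted p = 0.000263 with edgeR).

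H2-T23, which encodes Qa-1, the ligand of the CD94-NKG2A receptor on NK cells, had 62.8, 76.9 and 72.6 FPKM in WT and 88.1, 74.1 and 85.4 FPKM in S100a16KO+/- libraries. S100a16KO+/- replicate 2 lay within the WT range, and the log2 fold change was 0.22 (SE 0.06, adjusted p = 0.0147 with edgeR). H2-T22, whose product is recognised by gamma-delta T cells, had 16.1, 16.5 and 17.8 FPKM in WT and 19.99, 17.2 and 21.02 FPKM in S100a16KO+/- libraries, with the same library inside the WT range (log2 fold change 0.20, SE 0.06, adjusted p = 0.0305). H2-M3, which presents N-formylated peptides, had 1.005, 1.20 and 0.850 FPKM in WT and 2.04, 1.81 and 1.48 FPKM in S100a16KO+/- libraries. This was the largest upward log2 fold change among the 33 tested genes, from 1.02 ± 0.177 to 1.78 ± 0.286 FPKM, and the genotypes did not overlap (log2 fold change 0.79, SE 0.22, adjusted p = 0.0177). The call of H2-T23 was lost without WT replicate 1 or S100a16KO+/- replicate 1 (adjusted p = 0.0709 to 0.0885), that of H2-T22 without either of these, WT replicate 2 or S100a16KO+/- replicate 3 (0.0580 to 0.131), and that of H2-M3 without WT replicate 3, S100a16KO+/- replicate 1 or S100a16KO+/- replicate 2 (0.0524 to 0.0802). With WT replicate 1 and S100a16KO+/- replicate 2 both left out, adjusted p was 0.00637 for H2-T23, 0.00686 for H2-T22 and 0.0720 for H2-M3.

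Of the other H2-Q genes, H2-Q5 and H2-Q7 were called higher and H2-Q1, H2-Q2 and H2-Q6 were not called. H2-Q7, which encodes Qa-2, had 14.0, 14.7 and 14.7 FPKM in WT and 16.5, 15.2 and 17.04 FPKM in S100a16KO+/- libraries (log2 fold change 0.16, SE 0.05, adjusted p = 0.0458). H2-Q6, its close relative and neighbour, had 16.9, 18.4 and 17.2 FPKM against 19.8, 17.8 and 18.3 FPKM, overlapped between genotypes and was not called (log2 fold change 0.08, SE 0.06, adjusted p = 0.384). H2-Q5, annotated as a polymorphic pseudogene, had 2.58, 3.43 and 3.82 FPKM against 4.46, 4.35 and 4.31 FPKM (log2 fold change 0.41, SE 0.14, adjusted p = 0.0428). Of the 6 fits without a single library, H2-Q5 was called only in that without WT replicate 3 (adjusted p = 0.0679 to 0.146 in the others) and H2-Q7 in none (0.0522 to 0.142), and since H2-Q6 and H2-Q7 share reads, the difference between these genes was not tested. H2-Q1 varied more within the genotypes than between them, with 1.63, 2.45 and 6.13 FPKM in WT and 6.59, 2.04 and 6.97 FPKM in S100a16KO+/- libraries (log2 fold change 0.60, SE 0.72, adjusted p = 0.657). WT replicate 1, WT replicate 2 and S100a16KO+/- replicate 2 were low and the other libraries of both genotypes high. H2-Q2, H2-T10 and H2-T24 averaged 0.107 to 0.754 FPKM and were not called, although the FPKM of H2-T24 were higher in all S100a16KO+/- libraries (log2 fold change 0.54, adjusted p = 0.133).

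H2-K2 went the other way. It lies next to H2-K1 (chr17:33974659-33978827) and is annotated as a transcribed unprocessed pseudogene with processed transcripts. It had 5.84, 5.59 and 4.71 FPKM in WT and 2.66, 1.76 and 2.95 FPKM in S100a16KO+/- libraries. Every S100a16KO+/- library was below every WT library, and the mean fell from 5.38 ± 0.590 to 2.46 ± 0.623 FPKM, with a fitted change of -54.9% (log2 fold change -1.15, SE 0.16, adjusted p = 0.000121 with edgeR). Of its 31-base words, 16.6% occurred in other genes, most often in H2-D1 (8.21%), and none of its 150-base words did. H2-K2 was called lower in all 16 alternatives, with log2 fold changes of -1.27 to -0.89.

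Summed over the 17 class I heavy chain names, the level was 794, 902 and 876 FPKM in WT and 1033, 937 and 1027 FPKM in S100a16KO+/- libraries. The genotypes did not overlap, at 857 ± 56.3 and 999 ± 54.1 FPKM. When the counts of the 14 tested H2-K, H2-D, H2-Q and H2-T genes were added into a single row before the fit, so that a read counted to the wrong one of them no longer mattered, the row was higher with a log2 fold change of 0.22. The make-up of the sum hardly moved: H2-K1 took 40.9% to 42.3% of it in the 6 libraries, H2-D1 19.6% to 21.4%, H2-Q10 19.6% to 20.9% and H2-T23 7.91% to 8.53%.

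**Figure D2:**
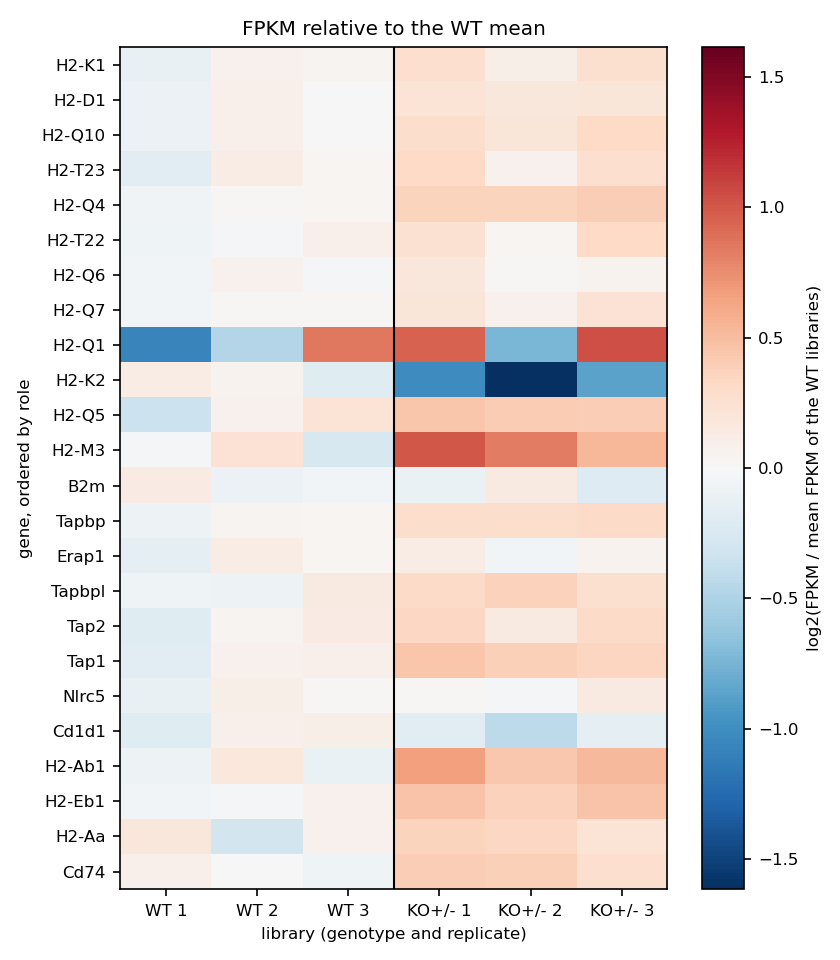
FPKM of the same 24 genes in each library relative to the WT mean of the gene, as a log2 ratio (colour), with genes ordered by role and a black line between the WT and S100a16KO+/- libraries. Most class I, peptide loading and class II genes are warmer in the S100a16KO+/- columns, H2-K2 and Cd1d1 are cooler, B2m shows no separation, and H2-Q1 varies within both genotypes.

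The light chain gene, the most abundant of the 37, was not called. B2m (chr2:122147686-122153083) had 1639, 1395 and 1445 FPKM in WT and 1387, 1655 and 1298 FPKM in S100a16KO+/- libraries. Its highest values were in WT replicate 1 and S100a16KO+/- replicate 2, the libraries with the largest mitochondrial share, whose part in these values was not tested. The genotypes overlapped, at 1493 ± 129 and 1447 ± 186 FPKM, with no difference called (log2 fold change -0.05, SE 0.17, adjusted p = 0.882). Without those 2 libraries the log2 fold change was -0.10 (adjusted p = 0.149). Per unit of summed heavy chain FPKM there were 1.55 to 2.06 units of B2m in WT and 1.26 to 1.77 in S100a16KO+/- libraries.

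Of the peptide loading genes, Tap1, Tap2, Tapbp and Tapbpl rose by 19.8% to 31.2%, and Erap1 was not called. Tap1, a subunit of the peptide transporter (chr17:34187553-34197225), had 2.27, 2.68 and 2.69 FPKM in WT and 3.46, 3.34 and 3.25 FPKM in S100a16KO+/- libraries. All S100a16KO+/- values lay above all WT values, and the mean rose from 2.55 ± 0.237 to 3.35 ± 0.108 FPKM (log2 fold change 0.39, SE 0.08, adjusted p = 0.00374 with edgeR). Its partner Tap2 had 4.82, 5.70 and 6.10 FPKM against 7.00, 6.13 and 6.88 FPKM (log2 fold change 0.26, SE 0.08, adjusted p = 0.0237). Tapbp, which bridges the transporter and the heavy chain, had 13.3, 14.5 and 14.4 FPKM against 17.1, 17.1 and 17.4 FPKM, 14.0 ± 0.682 and 17.2 ± 0.202 FPKM on average (log2 fold change 0.29, SE 0.06, adjusted p = 0.00165 with edgeR). Both sets of Tapbp values were tight and far apart. Tapbpl, a tapasin-related peptide editor that lies on chromosome 6, had 5.29, 5.24 and 6.18 FPKM against 6.90, 7.21 and 6.64 FPKM (log2 fold change 0.31, SE 0.10, adjusted p = 0.0353). Erap1, which trims peptides to their final length, had 9.61, 11.6 and 10.9 FPKM against 11.6, 10.4 and 11.1 FPKM, with overlapping genotypes (log2 fold change 0.04, SE 0.06, adjusted p = 0.674). Tap1 and Tapbp were called in all 6 fits without a single library. The call of Tap2 was lost without WT replicate 1, WT replicate 2, S100a16KO+/- replicate 1 or S100a16KO+/- replicate 3 (adjusted p = 0.0633 to 0.0946), and that of Tapbpl without any of replicates 1 and 2 of either genotype (0.0678 to 0.142).

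Nlrc5, the transactivator of class I genes, was not called. It had 1.60, 1.85 and 1.76 FPKM in WT and 1.76, 1.70 and 1.92 FPKM in S100a16KO+/- libraries, and the genotypes overlapped (log2 fold change 0.04, SE 0.08, adjusted p = 0.773). Cd1d1, which presents lipids to NKT cells, was lower. It had 73.4, 89.4 and 90.1 FPKM in WT and 74.0, 62.8 and 75.8 FPKM in S100a16KO+/- libraries, so that WT replicate 1 lay among the S100a16KO+/- values. The mean fell from 84.3 ± 9.49 to 70.9 ± 7.07 FPKM, with a fitted change of -16.4% (log2 fold change -0.26, SE 0.06, adjusted p = 0.00757 with edgeR). The call was held in all 6 fits without a single library, and without WT replicate 1 and S100a16KO+/- replicate 2 the adjusted p was 0.00026. With limma on log2(FPKM + 1) and on log2(FPKM + 0.1) the call was lost (adjusted p = 0.157 and 0.156). Of the 31-base words of Cd1d1, 24.2% are shared with Cd1d2. Cd1d2, at 31 to 77 counts in the 6 libraries, was not called (log2 fold change -0.63, SE 0.37, adjusted p = 0.256 with edgeR).

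**Figure D3:**
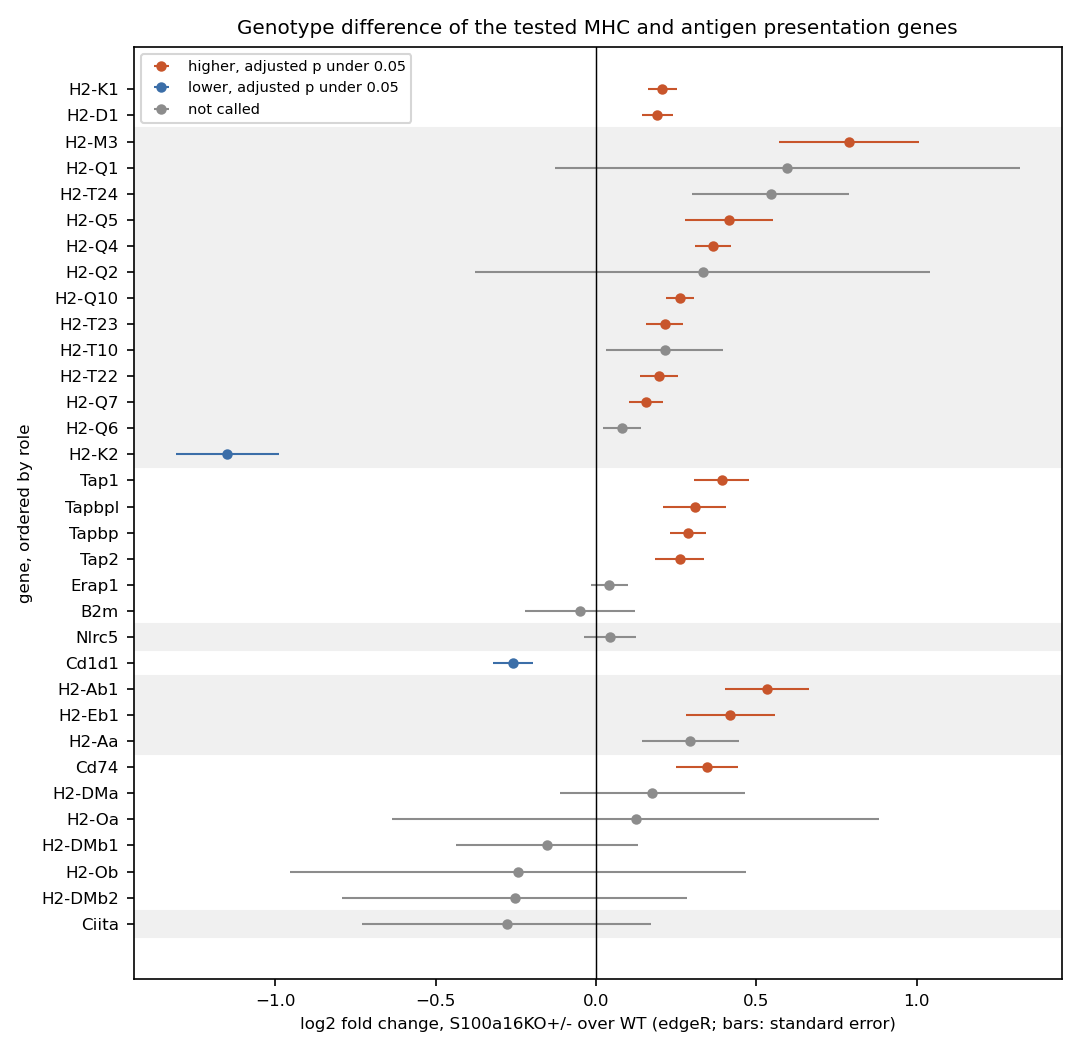
Log2 fold change (S100a16KO+/- over WT, edgeR) with its standard error for the 33 tested genes, ordered by role, with called genes in orange (higher) and blue (lower) and the others in grey. The 16 higher genes lie at 0.16 to 0.79, H2-K2 at -1.15 and Cd1d1 at -0.26.

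Class II transcripts were present at a low level and were higher for 3 of the 10 tested names (30.0%, against 11.6% of all tested genes). H2-Ab1, the beta chain of H2-A (chr17:34257689-34269419), had 1.62, 1.92 and 1.59 FPKM in WT and 2.71, 2.31 and 2.44 FPKM in S100a16KO+/- libraries. The genotypes did not overlap, and the mean rose from 1.71 ± 0.182 to 2.49 ± 0.205 FPKM, with a fitted rise of 44.7% (log2 fold change 0.53, SE 0.13, adjusted p = 0.00838 with edgeR). H2-Eb1, the beta chain of H2-E, had 1.69, 1.73 and 1.83 FPKM against 2.40, 2.27 and 2.41 FPKM (log2 fold change 0.42, SE 0.14, adjusted p = 0.0423). H2-Aa, the alpha chain of H2-A, had 1.66, 1.19 and 1.54 FPKM against 1.87, 1.85 and 1.70 FPKM (log2 fold change 0.29, SE 0.15, adjusted p = 0.196). The genotypes of H2-Aa were separated by a narrow gap, and it was not called. Cd74, the invariant chain, was the most abundant class II gene, with 9.24, 8.68 and 8.31 FPKM in WT and 11.6, 11.4 and 10.5 FPKM in S100a16KO+/- libraries. Its genotypes did not overlap either (8.74 ± 0.470 and 11.2 ± 0.563 FPKM, log2 fold change 0.35, SE 0.10, adjusted p = 0.0171). H2-Ea, annotated as a polymorphic pseudogene, was not measurable, at 5 counts at most. H2-DMa, H2-DMb1, H2-DMb2, H2-Oa, H2-Ob and the class II transactivator Ciita averaged 0.053 to 0.665 FPKM and were not called. The summed class II chains were at 4.83 to 5.00 FPKM in WT and 6.43 to 7.03 FPKM in S100a16KO+/- libraries. The H2-Ab1 call was held in all 6 fits without a single library, and the H2-Eb1 call in none (adjusted p = 0.0749 to 0.114). Cd74 was called without WT replicate 1 and without S100a16KO+/- replicate 3 and not in the other 4 fits (0.0506 to 0.0808).

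Markers of several other liver cells were also higher in S100a16KO+/- libraries. Of 10 Kupffer cell and macrophage markers 3 were higher and none lower, and their sum was 73.8 to 87.9 FPKM in WT and 87.0 to 100.3 FPKM in S100a16KO+/- libraries, overlapping. Of 8 dendritic cell markers 6 were tested and 2 were higher, with a sum of 0.970 to 1.37 FPKM against 1.75 to 2.06 FPKM, and Xcr1 had no more than 12 counts in any library. B cell markers gave 1 lower and none higher of 6, with sums of 1.20 to 1.45 and 0.766 to 1.25 FPKM, and 0 of the 6 tested T and NK cell markers were called by edgeR (1 at an unadjusted p under 0.05, 0 by DESeq2), with sums of 0.822 to 1.33 and 1.46 to 1.67 FPKM (Ncr1 at 12 counts or fewer). Among the 3 pan-leukocyte markers 1 was higher (2.91 to 3.45 against 4.10 to 4.64 FPKM), and 0 of the 4 tested neutrophil and monocyte markers were called by edgeR, with 1 at an unadjusted p under 0.05 and 0 by DESeq2 (2.49 to 4.12 against 3.65 to 4.98 FPKM, Ly6g at 12 counts or fewer). Sinusoidal endothelial markers were higher for 5 of 6 and lower for 1 (34.0 to 37.2 against 49.0 to 51.7 FPKM), and stellate cell markers higher for 4 of 5 (6.99 to 7.21 against 12.4 to 12.9 FPKM). Cholangiocyte markers gave 1 lower of 3 tested, at sums under 0.81 FPKM in every library. Over all 60 listed markers 55 were tested, of which 27.3% were higher, against 11.6% of all tested genes, and 9.09% were lower, against 11.2%. The part of these cells in the class I and class II differences was not tested.

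Of the 37 genes, 30 lie between 33915899 and 37483552 on chromosome 17. Of the 26 tested there, 14 were higher and 1 lower, and of the 7 on other chromosomes, 2 were higher (Tapbpl and Cd74) and 1 lower (Cd1d1). Other genes in this interval were counted after these values had been seen. Of 107 other tested genes, 24 were higher (22.4%) and 0 lower in edgeR's test (0 also at an unadjusted p under 0.05 and with DESeq2), with a median log2 fold change of 0.20, where 10.9% and 9.88% of the 658 tested chromosome 17 genes outside the interval were higher and lower and the median was 0.0043. Over the alternatives 16 to 29 of these neighbours were higher and at most 1 was lower, and without WT replicate 1 and S100a16KO+/- replicate 2 it was 22 and 0. Among them were Psmb8, which lies between Tap1 and Tap2, and the complement genes C4b, C2 and Cfb, with log2 fold changes of 0.37, 0.32, 0.29 and 0.24. S100a16 itself does not lie on chromosome 17, and whether the mice differed by strain in this interval cannot be told from expression values and was not tested. The same applies to the surroundings of Cd1d1 (chr3:86995834-86999309), whose distance from the targeted allele was not examined.

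Of 52 other listed genes of antigen presentation, all tested, 12 were higher (23.1%, against 11.6% of all tested genes) and 6 lower (11.5%, close to the 11.2% of all tested genes), with a median log2 fold change of 0.05. The roles were not tested against each other. All 5 genes that fold heavy chains and other glycoproteins in the endoplasmic reticulum were higher. Calr, a chaperone of newly made heavy chains, rose from 146 ± 1.46 to 244 ± 4.19 FPKM (log2 fold change 0.73, adjusted p = 2.83e-07 with edgeR). Pdia3, which joins tapasin in the loading complex, had a log2 fold change of 0.65, Uggt1 of 0.88, Canx of 0.45 and Ganab of 0.19. Of the 6 immunoproteasome and proteasome activator genes, Psmb8 was higher (0.37, adjusted p = 0.0213 with edgeR) and the activator subunit Psme2 lower (-0.30, adjusted p = 0.0252). The constitutive subunit Psmb7 was lower as well (-0.19, adjusted p = 0.035). Fcgrt, the neonatal Fc receptor, which also pairs with B2m, was higher (0.17, adjusted p = 0.0212), and so was the lysosomal protease Lgmn (0.50, adjusted p = 9.01e-05). The interferon regulatory factors Irf1 and Irf9 fell by 0.40 and 0.34 on the log2 scale (adjusted p = 0.00478 and 0.0421 with edgeR), as did Nfyb, by 0.34, a subunit of the factor that binds CCAAT. Irf8 (0.73, at a mean of only 0.456 FPKM), Rfxank (0.56), the receptor chain Ifnar1 (0.58) and the kinase Jak1 (0.15, adjusted p = 0.0482 with edgeR) were higher. Of the 6 fits without a single library, Jak1 was called in 0, Psmb7 in 1, Irf9 and Psme2 in 2, Psmb8, Fcgrt and Nfyb in 3 and Ganab in 4, and the other genes named here as called were called in all 6. Neither interferon-gamma receptor chain was called with all libraries, and 0 of the 4 co-stimulation genes were, by edgeR, by DESeq2 or at an unadjusted p under 0.05. Without WT replicate 1 and S100a16KO+/- replicate 2, 10 of the 52 genes were higher and 4 lower. Psmb8, Jak1, Psmb7, Irf9 and Nfyb were then no longer called, and the receptor chain Ifngr2 was lower (log2 fold change -0.41, adjusted p = 0.0326 with edgeR).

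**Figure D4:**
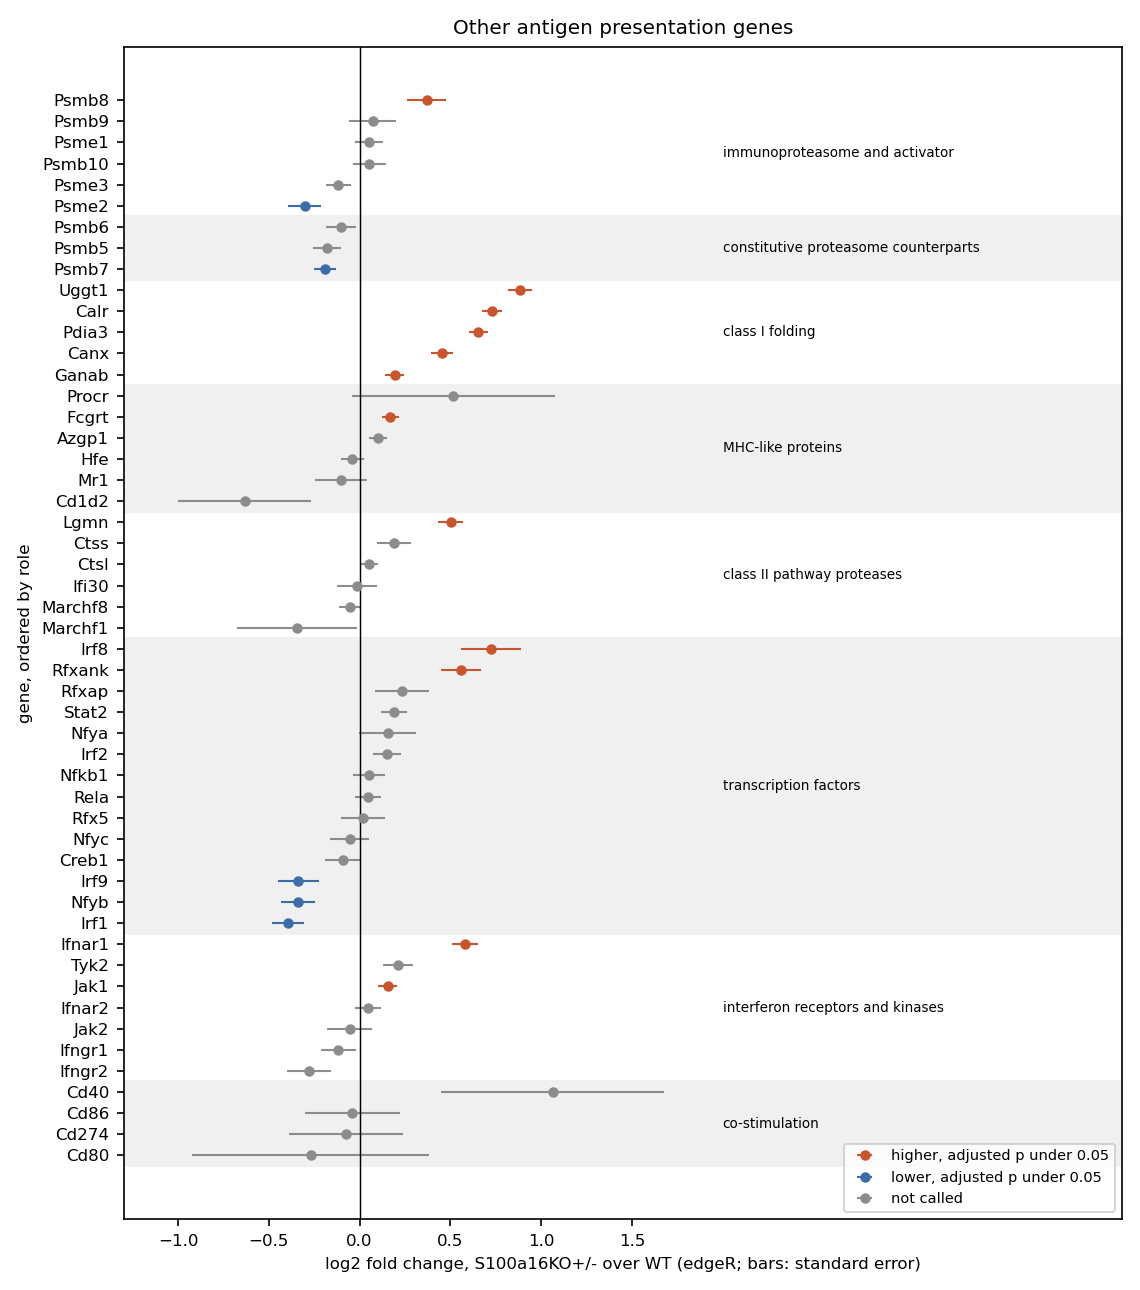
Log2 fold change (S100a16KO+/- over WT, edgeR) with its standard error for 51 of the other antigen presentation genes, grouped by role, with called genes in orange (higher) and blue (lower). All 5 class I folding genes lie between 0.19 and 0.88, and Irf1, Irf9 and Nfyb lie between -0.40 and -0.34.

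Since most of the abundant class I genes were higher while B2m was not called, the 250 bases before their start sites are shown for genes that rose (H2-K1, H2-D1, H2-Q10, Tap1, H2-T23) and for B2m. Sequences are from the RefSeq promoter table on GRCm38.p6, which held 23 of the 37 genes, 5′ to 3′ on the gene's strand. They lie at chr17:34000348-34000597 (minus) for H2-K1, chr17:35262844-35263093 (plus) for H2-D1, chr17:35469839-35470088 (plus) for H2-Q10, chr17:34187306-34187555 (plus) for Tap1, chr2:122147437-122147686 (plus) for B2m and chr17:36032702-36032951 (minus) for H2-T23. Capitals mark the searched letters, on either strand: GAAANNGAA and GAAANGAAA (cores of the interferon response element, which can overlap), CCAAT (Y box), TGACG (part of the X2 box) and GGGATTCCC (kappa-B letters).
H2-K1: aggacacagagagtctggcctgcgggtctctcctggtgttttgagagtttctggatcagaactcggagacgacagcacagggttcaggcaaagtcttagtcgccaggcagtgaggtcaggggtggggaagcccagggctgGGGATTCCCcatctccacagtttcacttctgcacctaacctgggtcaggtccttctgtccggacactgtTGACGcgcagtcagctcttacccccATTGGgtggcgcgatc
H2-D1: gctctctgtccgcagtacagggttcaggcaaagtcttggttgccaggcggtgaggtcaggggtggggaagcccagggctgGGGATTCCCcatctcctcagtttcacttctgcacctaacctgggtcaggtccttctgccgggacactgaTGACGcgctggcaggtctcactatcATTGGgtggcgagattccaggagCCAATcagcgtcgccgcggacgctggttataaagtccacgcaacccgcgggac
H2-Q10: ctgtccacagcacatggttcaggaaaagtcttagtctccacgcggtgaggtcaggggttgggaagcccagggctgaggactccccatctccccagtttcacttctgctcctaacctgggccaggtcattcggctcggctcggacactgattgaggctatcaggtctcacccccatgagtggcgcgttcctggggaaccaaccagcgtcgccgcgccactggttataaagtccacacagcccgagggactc
Tap1: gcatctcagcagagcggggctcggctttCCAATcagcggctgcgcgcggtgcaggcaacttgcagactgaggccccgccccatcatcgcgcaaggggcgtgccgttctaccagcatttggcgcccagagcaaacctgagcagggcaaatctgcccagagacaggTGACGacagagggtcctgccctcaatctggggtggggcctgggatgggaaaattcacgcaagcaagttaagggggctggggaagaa
B2m: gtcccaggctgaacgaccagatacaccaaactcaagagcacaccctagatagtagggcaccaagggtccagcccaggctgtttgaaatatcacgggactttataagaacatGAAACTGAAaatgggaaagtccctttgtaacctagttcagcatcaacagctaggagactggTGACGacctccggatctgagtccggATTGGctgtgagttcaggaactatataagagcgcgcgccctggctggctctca
H2-T23: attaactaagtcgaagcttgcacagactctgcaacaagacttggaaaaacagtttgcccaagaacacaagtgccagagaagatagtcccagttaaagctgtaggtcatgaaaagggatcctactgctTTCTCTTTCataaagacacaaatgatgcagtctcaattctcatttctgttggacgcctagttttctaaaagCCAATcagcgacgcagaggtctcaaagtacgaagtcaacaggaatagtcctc
The kappa-B letters were found before H2-K1, H2-D1, H2-Q6 and H2-Q7, 4 of the 23 genes, and in 0.301% of the 32851 promoters of the table. The printed H2-K1 and H2-D1 sequences are almost the same around this match, so the 4 genes are not separate finds. Members were counted by gene, and the share of all promoters by promoter. CCAAT occurred in 21 of the 23 and in 33.8% of all promoters, and TGACG in 10 of the 23 and in 17.8%. Either interferon core occurred before 4 of the 23 (B2m, Erap1, H2-T22 and H2-T23) and in 9.35% of all promoters. Other arrangements of these core letters were not searched. The stretch cagtttcacttctg before H2-K1, H2-D1 and H2-Q10 holds such an arrangement on the other strand. The count therefore does not show which genes lack an interferon response element. Of the genes with either searched interferon core, H2-T22 and H2-T23 were called higher and B2m and Erap1 were not called. H2-Q10 held none of the searched letters in this window. Of the genes with the kappa-B letters, H2-K1, H2-D1 and H2-Q7 were called higher and H2-Q6 was not called. These matches describe letters in a window and no binding was measured.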

How the data were processed

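RNA-seq was measured in 6 libraries, 3 per genotype, grouped by the genotype in the labels. The authors deposited an estimated count for each gene, not scaled for library size, and an FPKM value scaled by the authors for transcript length and library size. The submitters' processing notes name cutadapt 1.9, HISAT2 2.0.4, UMI-tools, StringTie 1.3.4d and the mm10 build. The notes also list DESeq2 and edgeR, and the paper names DESeq2 for the comparison. Of the 25718 genes, 25655 occur in GENCODE M21, 30 of the 37 members at the same position, and coordinates are those of the table.

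The estimated counts were compared with edgeR 4.0.16 (R 4.3.3) after TMM scaling and filterByExpr, by a robust two-sided quasi-likelihood test of genotype without covariates, adjusted by Benjamini-Hochberg over 15957 genes. edgeR was the main test and DESeq2 1.42.0 an alternative. On simulated counts edgeR recovered 195 of 200 changed genes with 6 false calls among 15890 tested. The recovery was not split by size of change, and recovery of rises as small as those reported here was not tested. Totals of 67658095 to 71807834 counts set the precision, and floors cover counting error only. Genes were named with all library values if they had a mean of at least 1 FPKM or were called, and genes of the pathway list if called (18, within a limit of 20), except 1 gene that is not reported here. The members and lists were chosen with earlier results of these data known. Alternatives were the replicate block, leaving out each library, other scalings and filters, DESeq2, limma 3.58.1 on log2(FPKM + 1) and log2(FPKM + 0.1), counts divided by 4, summed class I rows and the study's criterion. Leaving out WT replicate 1 and S100a16KO+/- replicate 2 together was added after the data were seen. Promoters and transcripts were read from RefSeq and GENCODE tables.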

Additional observations from a re-analysis of the deposited data

How the results depend on the processing

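Of the MHC and antigen presentation genes, 18 were called in the main comparison. Leaving out each library in turn left 9 to 13 called (9 without S100a16KO+/- replicate 1, 11 without WT replicate 1 and 11 without WT replicate 2), limma on log2(FPKM + 1) and on log2(FPKM + 0.1) left 9 each (9 calls lost, those of H2-K1, H2-D1, H2-Q5, H2-Q7, H2-T22, H2-T23, Tap2, Tapbpl and Cd1d1), summing the class I rows left 10 of 20 tested rows, and the study's criterion left 1. Over all genes, 3643 were called, against 2419 with limma on log2(FPKM + 1), 2365 with limma on log2(FPKM + 0.1) and 721 by the study's criterion applied to edgeR's test. Leaving out single libraries gave 2764 to 3339. Of the other antigen presentation genes, 18 were called, against 11 to 15 without single libraries (11 without S100a16KO+/- replicate 1) and 10 with limma on either scale. The cause of these differences was not tested. Calls of 6 genes held in all alternative fits that gave the gene its own row (H2-Q4, H2-Q10, Tap1, Tapbp and H2-Ab1 higher, H2-K2 lower). The summed class I fit has no separate row for H2-Q4, H2-Q10 and H2-K2. The study's criterion is not counted among these fits, and of the 6 genes only H2-K2 passed it. Over the 18 called genes, 228 of 297 alternative values kept direction and call, 69 kept the direction only, and none reversed. B2m, not called, had log2 fold changes of -0.21 to 0.063 without single libraries and reversed to 0.063 without WT replicate 1 and 0.048 without S100a16KO+/- replicate 3. S100a16 was called lower in all 17 alternatives, at -1.46 to -1.17. Same-numbered libraries did not deviate together (r = -0.05, -0.02 and 0.05), so the replicate numbers were not taken as pairs. With the replicate block 14 genes were called, 12 higher and 2 lower, 14 of the other antigen presentation genes and 3082 of all genes. Upper-quartile scaling moved the split of all called genes to 2126 higher and 1485 lower and left that of the MHC and antigen presentation genes at 16 and 2. Depth limited what could be seen of the genes under 1 FPKM, and 4 genes were under the floor of 12 counts.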
